A study of Mus musculus with 10 samples.

Results

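The Reg lectins and the inducible defence genes of the gut epithelium were followed as a set of 10 named genes: Reg1, Reg3a, Reg3b, Reg3g, Reg4, Nos2, Duox2, Duoxa2, Lcn2 and Pigr. They were found by symbol among the 28987 gene IDs of the deposited files. All 10 were present, and all 10 were among the 13056 genes that reached 1 TPM in at least 2 libraries and were tested. Lcn2 passed that filter through 2 OE libraries alone.

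RNA came from ileal crypts of mice and was sequenced single-end. Crypts are the pits between the villi, where stem cells renew the epithelium and Paneth cells secrete antimicrobial peptides. The KO group (2 libraries) is labelled VilCreER;Stat5 and STAT5IEC-/-, a loss of Stat5 from intestinal epithelial cells, where the villin promoter drives an inducible Cre. The OE group (5 libraries) is labelled VilCreER;icS5 and STAT5IEC+++, and the labels do not spell out icS5. The Ctrl group (3 libraries) is labelled VilCreER;Stat5 and STAT5+/+, so every group carries VilCreER, and no separate control of the icS5 line was analysed here. All crypts were released by shaking in PBS with EDTA (10 mM, 37 °C, 30 minutes). All mice were labelled C57Bl6, male and 12 weeks old, and the labels name no inducer dose and no infection. The labels do not say whether each library is a separate animal, so a p-value here measures only the spread between samples, which may be technical. In bulk RNA, fewer cells of a type and less RNA per cell cannot be told apart.

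Reg proteins are small secreted C-type lectins. Reg3b and Reg3g are made by enterocytes and Paneth cells, the product of Reg3g kills Gram-positive bacteria, and both genes are known to be induced by microbes through Myd88 and through IL-22 and Stat3. Duox2 is an oxidase that releases hydrogen peroxide at the apical membrane and needs Duoxa2 to mature, Nos2 makes nitric oxide, Lcn2 binds bacterial siderophores, and Pigr carries IgA across the epithelium.

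The values are TPM, a length-corrected share of all transcripts, divided here by a median-ratio factor for each library and called scaled TPM. Since TPM hold no counts, library depth is unknown. Stat5a was at 0.637 and 0.336 scaled TPM in KO, at 1.56, 2.10, 3.555, 2.81 and 2.81 in OE, and at 1.515, 2.60 and 1.07 in Ctrl, and Stat5b was at 0.482 and 0.430 scaled TPM in KO, at 1.49, 3.50, 4.71, 5.53 and 2.65 in OE, and at 1.72, 1.76 and 0.9705 in Ctrl. In scaled values both KO libraries were below all others for both genes, while the library labelled OE 1 lay within the Ctrl range for both. As deposited KO 1 was at 0.771 TPM of Stat5a and 0.583 of Stat5b, just above Ctrl 2 at 0.765 and 0.517. Ctrl 2 stood apart: mitochondrially encoded transcripts took 83.7% of its TPM, against 43.3% to 56.97% elsewhere. The short gene mt-Atp8 alone was at 549100 TPM as deposited in Ctrl 2 and at 166200 to 375600 elsewhere. The 12 Paneth cell markers of Ctrl 2 summed to 531 scaled TPM and its 11 enterocyte markers to 15190, against 4387 to 20950 and 795 to 7961 in the other libraries. Its median-ratio factor was 0.2945, against 0.831 to 1.31 elsewhere, so the scaling raised its values. As deposited its Paneth sum was still the lowest, but its enterocyte sum was below that of the library labelled OE 1. Y-linked genes summed to 0.250 TPM in OE 3, 0.140 in OE 4 and 3.45 in Ctrl 3, although all mice are labelled male, and to at least 32.3 elsewhere.

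In every comparison 0 of the 10 defence genes passed an adjusted p of 0.05 in limma. The share of all tested genes that passed was 0.0% in each of the comparisons. At an unadjusted limma p under 0.05 there was 1 of the 10 in each comparison. It was Reg3g in KO against Ctrl, where 3.46% of all tested genes had such a p, Lcn2 in OE against Ctrl, where 6.1% did, and Reg4 in OE against KO, where 2.95% did. Lcn2 entered the test through its high values in OE 2 and OE 4, so its p in OE against Ctrl supports nothing. In KO against Ctrl 5 of the 10 log2 differences were positive, with a median of 0.045 (0.038 over all tested genes). In OE against Ctrl 6 were positive, with a median of 0.45 (0.021 over all), and in OE against KO 4 were positive, with a median of -0.145 (-0.001 over all). The comparisons with Ctrl share the same Ctrl libraries. Without Ctrl 2 the median in OE against Ctrl was -0.041 with 5 positive, and without Ctrl 3 it was 1.02, against 0.25 in KO against Ctrl. Without KO 2 the median in OE against KO was 0.073 with 6 positive. As deposited, the medians over all tested genes were 0.38 in KO against Ctrl and 0.36 in OE against Ctrl, and those over the 10 genes 0.49 and 0.92.

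Much of the set varied widely within groups. The within-group SD on the log2 scale was 2.21 for Reg1, 1.58 for Reg4, 1.24 for Reg3a, 1.22 for Reg3b, 1.08 for Nos2, 1.03 for Duoxa2, 0.928 for Reg3g and 0.886 for Duox2, against a median of 0.472 over all tested genes. Each of these 8 exceeded the SD of at least 87.4% of the tested genes, a share not matched for level. For Lcn2, at 0.559, that share was 62.8%, and for Pigr, at 0.337, it was 25.4%. Without Ctrl 2, a choice made after seeing the data, the SD of Reg1 was 0.395, below the 0.408 of the median tested gene, and that of Duox2 was 0.613, above 77.7% of tested genes. The other 6 of the 8 were then at 0.865 to 1.55, each above at least 90.65%.

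**Figure D1:**
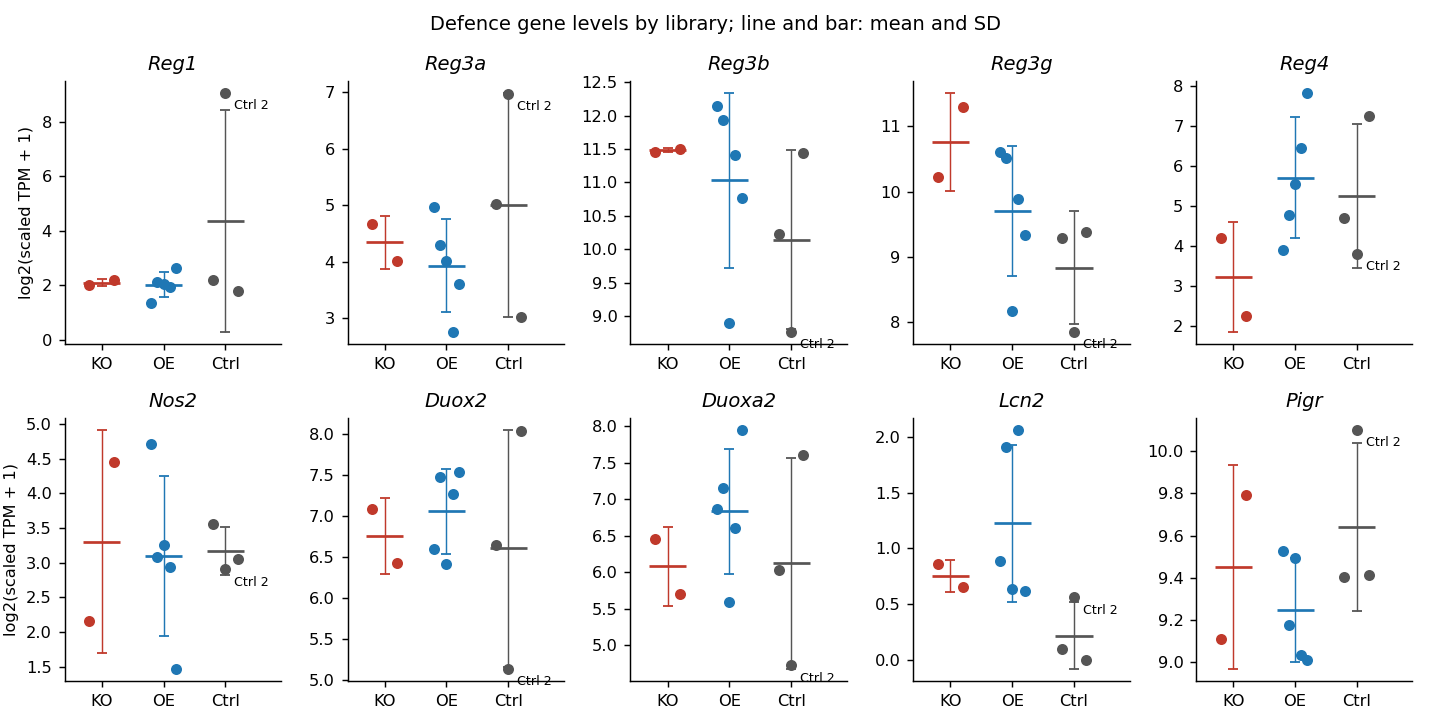
Level of each of the 10 defence genes as log2(scaled TPM + 1) in the KO (2), OE (5) and Ctrl (3) libraries, with 1 point a library, lines for means and bars for SDs; the y axes differ and need not start at 0. Reg1 is at most 5.15 scaled TPM in every library but Ctrl 2. Both KO libraries lie above all Ctrl libraries for Reg3b, Reg3g and Lcn2, as they do for 9.09% of all tested genes. As deposited the Reg3b groups overlap, and Lcn2 is under 1 TPM in all KO and Ctrl libraries.

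Reg3b and Reg3g, with Pigr, were the most abundant of the set, and the median level of each exceeded that of at least 99.5% of the tested genes. They belong to a run of 6 Reg genes on chromosome 6 (mm10, 78370657 to 78468872), which spans 98.2 kb and holds, in order, Reg3b, Reg3d, Reg3a, Reg2, Reg1 and Reg3g. Reg3b (ENSMUSG00000071356, chromosome 6, 78370657 to 78373466, plus strand) and Reg3g (ENSMUSG00000030017, chromosome 6, 78466269 to 78468872, minus strand) are its end genes. The 150 bases before the RefSeq transcript start (GRCm38.p6) are shown for Reg3b and Reg3g because these genes varied together across libraries. The same stretch is shown for Reg3a, a less abundant neighbour whose correlation with them was not computed. The bases are written 5' to 3', and capitals mark TATAAA or TTCNNNGAA, the letters of a TATA box and of the palindromic STAT consensus. GENCODE places 24 bases of the Reg3b stretch in an exon, and none of the others.
Reg3b, chr6:78370735-78370884, plus strand: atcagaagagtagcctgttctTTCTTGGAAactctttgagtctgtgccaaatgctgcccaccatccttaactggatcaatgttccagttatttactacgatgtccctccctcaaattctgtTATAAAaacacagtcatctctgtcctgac
Reg3g, chr6:78468875-78469024, minus strand: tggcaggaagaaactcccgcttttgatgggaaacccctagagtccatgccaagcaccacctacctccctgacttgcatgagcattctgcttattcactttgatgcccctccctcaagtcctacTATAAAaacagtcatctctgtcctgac
Reg3a, chr6:78380559-78380708, plus strand: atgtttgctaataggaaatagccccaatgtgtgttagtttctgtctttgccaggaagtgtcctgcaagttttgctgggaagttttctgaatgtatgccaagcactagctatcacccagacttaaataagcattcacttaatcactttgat

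Over the 250 bases before the start, Reg3b and Reg3g were 70.0% identical at aligned positions, with a shared run of 20 bases that ends at the base before the start. By the same measure Reg3g and Reg3a were 71.9% identical and Reg3b and Reg3a 69.9%, so this share does not set the pair apart. The alignments with Reg3a held more gaps, at 102 and 108 bases against 6. A link between these sequences and the levels was not tested. TATAAA lay at -29 to -24 in Reg3b and at -27 to -22 in Reg3g, counted from the start. TTCNNNGAA lay at -129 to -121 in Reg3b, and these letters are not in the window of Reg3g. Windows of 250 bases before and 50 after the start were found for 9 of the 10 genes, all but Nos2, and were searched on both strands. TTCNNNGAA was in 2 of the 9 (Reg3b and Pigr) and in 8.3% of 32851 promoters. The wider spacing, TTC and GAA with 4 bases between them, was in 2 (Reg1 and Lcn2) and in 6.95% of promoters, and no window of the 9 held both. TATAAA was in 4 (Reg1, Reg3b, Reg3g and Duoxa2) and in 13.6%. Some windows reach into annotated exons: of the 250 bases before the start, GENCODE places 222 in an exon for Duox2, 197 for Lcn2, 74 for Reg3b and 53 for Reg1. These matches describe letters, not binding sites.

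How reads were shared between similar genes is not given in the sources used here, and neither is the read length. The longest open reading frames of Reg3b and Reg3g (528 and 525 bases) were 76.4% identical at aligned positions. Their longest shared run, shown because reads within it fit both genes, has 35 bases and begins at base 26 of the Reg3b frame.
Reg3b and Reg3g: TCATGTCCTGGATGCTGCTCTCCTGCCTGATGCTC
The longest run shared by Reg3a and Reg3b was 24 bases. Reg2 and Reg1 were 82.5% identical, with a longest shared run of 19 bases. The values of these genes are uncertain by an amount that these exact runs do not bound, since only the frames of the transcripts were compared.

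**Figure D2:**
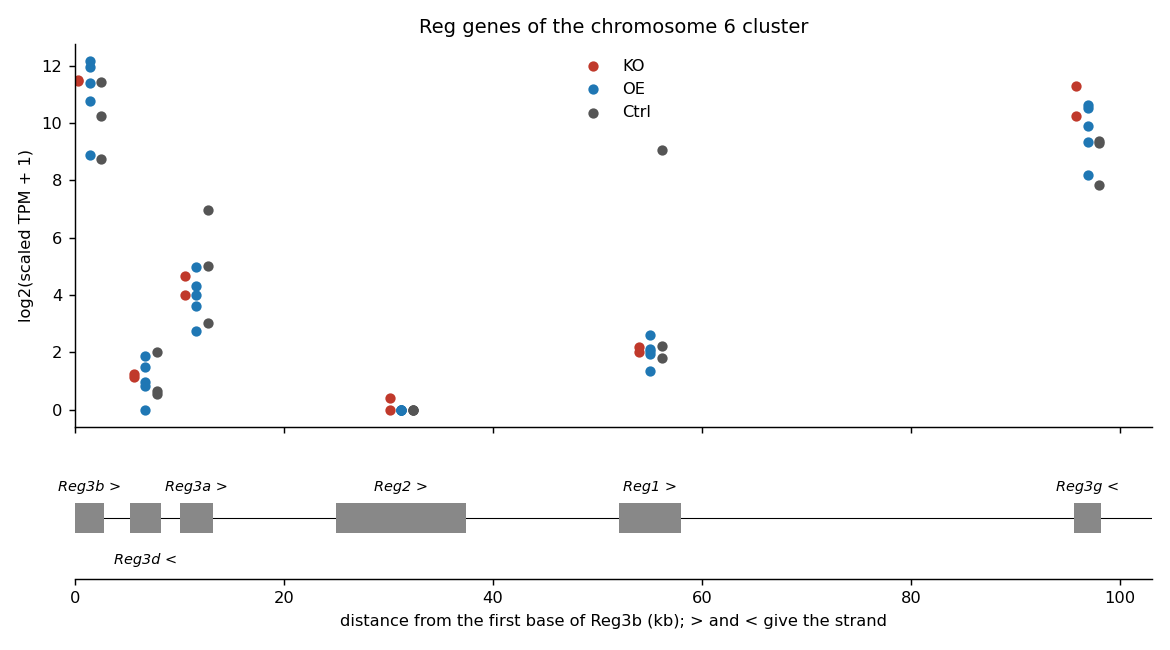
Levels of the 6 Reg genes of the chromosome 6 run as log2(scaled TPM + 1), with 1 point for each KO, OE and Ctrl library, placed by distance in kb from the first base of Reg3b; the boxes are the genes. The end genes, Reg3b and Reg3g, are the abundant ones, and the high point of Reg1 is Ctrl 2, at 535 scaled TPM.

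Reg3g was at 1196 and 2504 scaled TPM in KO, at 1563, 1464, 289, 943 and 646 in OE, and at 624, 229 and 665 in Ctrl. Both KO libraries lay above all 3 Ctrl libraries, while 3 of the 5 OE libraries lay above all Ctrl libraries and OE 3 and OE 5 within the Ctrl range. The log2 difference in KO against Ctrl was 1.92 (0.26 to 3.58, limma adjusted p = 0.943), with a 95% interval in the brackets here and below. It was 1.42 without Ctrl 2 and 1.39 without KO 2. As deposited the groups did not overlap either, at 1446 and 2624 TPM in KO against 762, 67.5 and 868 in Ctrl. For OE against Ctrl the log2 difference was 0.87 (-0.46 to 2.19, limma adjusted p = 0.759), and 0.37 without Ctrl 2. In OE against KO it was -1.05 (-2.57 to 0.47, limma adjusted p = 1), with -0.52 without KO 2, -1.585 without KO 1 and -0.67 without OE 3.

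Reg3b was at 2812 and 2892 scaled TPM in KO, at 4524, 3907, 472.5, 2712 and 1746 in OE, and at 1203, 431 and 2767 in Ctrl. KO lay above Ctrl, by a small margin over Ctrl 3, and as deposited the groups overlapped. The log2 difference in KO against Ctrl was 1.34 (-0.82 to 3.49, limma adjusted p = 0.943), and 0.64 without Ctrl 2. Between OE and Ctrl it was 0.89 (-0.84 to 2.61, limma adjusted p = 0.783), with 0.19 without Ctrl 2, 1.53 without Ctrl 3 and 1.42 without OE 3, the lowest OE library. In OE against KO it was -0.45 (-2.43 to 1.53, limma adjusted p = 1). That value was 0.085 without OE 3, -0.73 without the library labelled OE 1, -0.68 without OE 2 and 0.14 without OE 3, OE 4 and Ctrl 3 together.

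Markers of the cell types that make Reg3b and Reg3g are set beside these values. Of the 12 Paneth markers 11 were positive in KO against Ctrl and 12 in OE against Ctrl, and of the 11 enterocyte markers 0 and 0, and none passed after adjustment. Of all tested genes 53.0% and 52.1% were positive in these comparisons. The counts of both lists include Ctrl 2. The Paneth markers summed to 4387 and 9204 scaled TPM in KO, 6593 to 20950 in OE and 531 to 9351 in Ctrl, and the enterocyte markers to 1438 and 2129 scaled TPM in KO, 795 to 7961 in OE and 1427 to 15190 in Ctrl, with Ctrl 2 at the low end of the Ctrl range in Paneth markers and at the high end in enterocyte markers. In Ctrl 1 and Ctrl 3 the Paneth sums were 9351 and 7722, and the enterocyte sums 3247 and 1427. Both ranges overlapped those of KO. The part of these cell types in the Reg3b and Reg3g values was not tested.

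Of the 10 genes, 3 had KO libraries wholly above Ctrl in scaled values (Reg3b, Reg3g and Lcn2) and 0 wholly below, where 9.09% of all tested genes lay wholly above and 7.27% wholly below. In OE against Ctrl Lcn2 alone lay wholly above, as did 2.21% of tested genes, but it was tested only because OE 2 and OE 4 were high, and 0 lay wholly below, as did 1.52%. In OE against KO 0 of the 10 separated, where 8.47% of tested genes did in either direction.

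Reg3b and Reg3g varied together. Pearson r of log2(scaled TPM + 1) over the 10 libraries was 0.901 (permutation p = 0.0004, adjusted p = 0.0012 over 6 pairs) and Spearman rho 0.9515 (permutation p = 0.0001, adjusted p = 0.0005). Without OE 3 and Ctrl 2, the libraries farthest from the median of Reg3b, r was 0.686, and for deviations from the group means it was 0.921. OE 3 and Ctrl 2 were the lowest libraries for both genes. The permutation p is against no correlation at all, and the libraries share their scaling. Of 7336 protein-coding genes searched, Cd38, Capg and Mospd3 followed Reg3b more closely than Reg3g did, at 0.927, 0.918 and 0.915. For Reg3g only Mal2, at 0.906, was closer than Reg3b. The ratio of Reg3g to Reg3b, which no scaling of a library changes, was 0.425 and 0.866 in KO, 0.346, 0.375, 0.611, 0.348 and 0.370 in OE, and 0.519, 0.5315 and 0.2405 in Ctrl. KO 2 had the highest ratio and Ctrl 3 the lowest, and the groups overlapped.

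**Figure D3:**
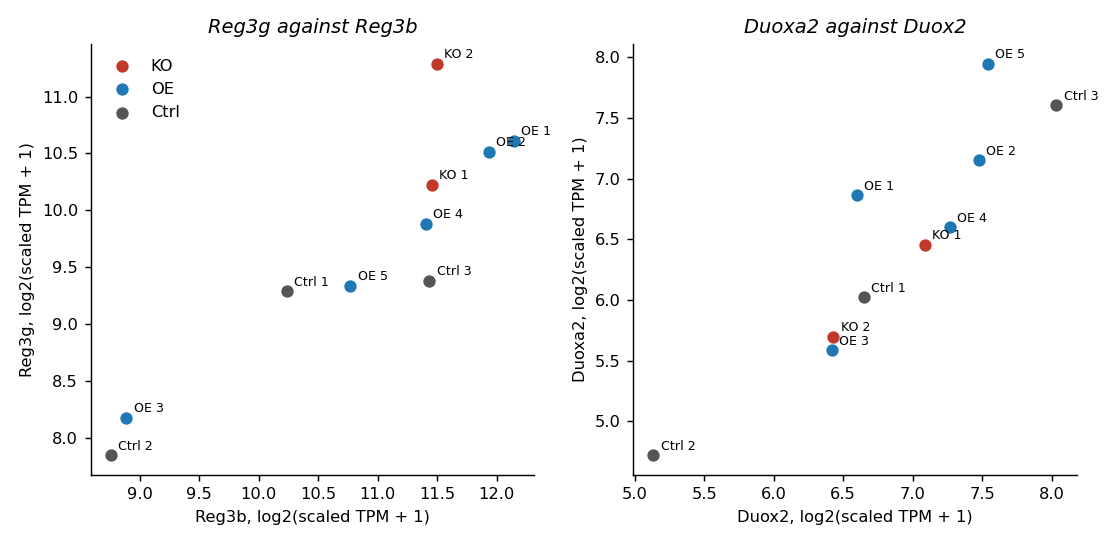
Reg3g against Reg3b (left) and Duoxa2 against Duox2 (right), each as log2(scaled TPM + 1), with 1 point for each of the 10 KO, OE and Ctrl libraries. The genes of each pair vary together, and Ctrl 2 is the lowest library in both panels.

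Reg3a (ENSMUSG00000079516, chromosome 6, 78380709 to 78383827, plus strand), another secreted lectin, was far less abundant. It was at 24.4 and 15.1 scaled TPM in KO, at 30.2, 18.7, 15.1, 5.71 and 11.2 in OE, and at 31.6, 125 and 7.07 in Ctrl. Ctrl 2, the lowest library for Reg3b and Reg3g, was the highest for Reg3a, and the groups overlapped. As deposited, Ctrl 2 was at 36.85 TPM and Ctrl 1 at 38.6, so the rank of Ctrl 2 depends on the scaling. The log2 difference in KO against Ctrl was -0.67 (-2.78 to 1.45, limma adjusted p = 0.943), with 0.32 without Ctrl 2, -1.665 without Ctrl 3 and -0.34 without KO 2. For OE against Ctrl it was -1.08 (-2.77 to 0.61, limma adjusted p = 0.761), with -0.094 without Ctrl 2 and -2.08 without Ctrl 3. In OE against KO it was -0.41 (-2.35 to 1.53, limma adjusted p = 1), with -0.083 without KO 1, -0.74 without KO 2, -0.12 without OE 4 and -0.67 without the library labelled OE 1.

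Reg1 (ENSMUSG00000059654, chromosome 6, 78422711 to 78428667, plus strand), a lectin known best from the pancreas, stood out in 1 library. It was at 3.02 and 3.58 scaled TPM in KO, at 1.54, 3.345, 3.17, 2.83 and 5.15 in OE, and at 3.62, 535 and 2.49 in Ctrl. Ctrl 2 was thus 104 times the next library, OE 5. As deposited it was at 158 TPM against 1.28 to 5.75 elsewhere, so this does not rest on the scaling. The log2 difference of -2.26 (-5.97 to 1.46, limma adjusted p = 0.943) in KO against Ctrl was 0.098 without Ctrl 2 and -3.535 without Ctrl 3. That of -2.34 (-5.31 to 0.63, limma adjusted p = 0.755) in OE against Ctrl was 0.012 without Ctrl 2 and -3.62 without Ctrl 3. In OE against KO it was -0.086 (-3.49 to 3.32, limma adjusted p = 1), with 0.008 without KO 2 and 0.082 without the library labelled OE 1. Of 10 markers of pancreatic acinar cells, 6 were listed at 0 in all libraries (Cpa1, Cpb1, Prss2, Ctrb1, Amy2a5 and Pnlip). The list summed to 1.88 scaled TPM in Ctrl 2, within the 0.3875 to 4.11 of the other libraries. The high enterocyte marker sum of Ctrl 2 in scaled TPM, which was not the highest as deposited, was given above. Its part in the Reg1 value was not tested.

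Reg4 (ENSMUSG00000027876, chromosome 3, 98222156 to 98236748, plus strand), a family member outside the chromosome 6 run that is known from secretory cells of the gut, was lowest in KO 2. It was at 17.5 and 3.775 scaled TPM in KO, at 14.05, 26.6, 46.5, 86.7 and 227 in OE, and at 25.0, 13.0 and 153 in Ctrl. The library labelled OE 1 and Ctrl 2 lay below KO 1, so the groups overlapped. The log2 difference in OE against KO was 2.48 (0.032 to 4.93, limma adjusted p = 1), with 1.504 without KO 2. In KO against Ctrl it was -2.03 (-4.698 to 0.64, limma adjusted p = 0.943), with -1.05 without KO 2 and -1.02 without Ctrl 3. Between OE and Ctrl it was 0.45 (-1.68 to 2.59, limma adjusted p = 0.916), with -0.27 without Ctrl 2, -0.078 without OE 5, 0.903 without the library labelled OE 1 and 1.46 without Ctrl 3. The 8 goblet markers summed to 2017 and 3096 scaled TPM in KO, 1388 to 4611 in OE and 1746 to 5204 in Ctrl, and 7 of them were positive in OE against KO. The 9 enteroendocrine markers summed to 26.25 and 47.4 scaled TPM in KO, 16.5 to 53.5 in OE and 24.0 to 39.9 in Ctrl, and of 8 tested 2 were positive and 6 negative in OE against KO. Of all tested genes 49.9% were positive in that comparison. The part of goblet and enteroendocrine cells in the Reg4 values was not tested.

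The family members outside the named set were near or below the limit of the filter. Reg3d was at 1.28 ± 0.129 scaled TPM in the 2 KO libraries (mean ± SD), 1.24 ± 1.01 in the 5 OE libraries and 1.35 ± 1.45 in the 3 Ctrl libraries. Its log2 differences of 0.125 in KO against Ctrl, -0.034 in OE against Ctrl and -0.16 in OE against KO did not pass in limma. Reg2 was listed at 0 in 9 libraries and at 0.331 scaled TPM in KO 2.

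Duox2 (ENSMUSG00000068452, chromosome 2, 122279247 to 122298449, minus strand) and Duoxa2 (ENSMUSG00000027225, chromosome 2, 122298900 to 122302885, plus strand) lie head to head, with 451 bases between their GENCODE starts in mm10. The 150 bases before the RefSeq start of Duoxa2 are shown because the pair varied together, with TATAAA at -30 to -25 in capitals. The window of Duox2 held none of the 3 motifs.
Duoxa2, chr2:122298750-122298899, plus strand: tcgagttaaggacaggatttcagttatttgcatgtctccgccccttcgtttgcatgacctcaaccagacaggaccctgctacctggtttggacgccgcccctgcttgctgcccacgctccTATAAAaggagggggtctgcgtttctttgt

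Duox2, the oxidase, was at 135 and 85.2 scaled TPM in KO, at 96.0, 177, 84.6, 153 and 186 in OE, and at 99.2, 34.1 and 261 in Ctrl. Ctrl libraries held both the highest and the lowest value. Duoxa2, its maturation factor, was at 86.75 and 50.9 scaled TPM in KO, at 115, 141, 47.1, 96.0 and 246 in OE, and at 64.15, 25.4 and 194 in Ctrl. Ctrl 2 was lowest for both genes, and the groups overlapped in every comparison. For Duox2 the log2 difference was 0.155 (-1.39 to 1.701, limma adjusted p = 0.982) in KO against Ctrl, 0.46 (-0.78 to 1.69, limma adjusted p = 0.842) in OE against Ctrl and 0.302 (-1.115 to 1.72, limma adjusted p = 1) in OE against KO. For Duoxa2 it was -0.042 (-1.815 to 1.73, limma adjusted p = 0.997) in KO against Ctrl, 0.71 (-0.705 to 2.13, limma adjusted p = 0.789) in OE against Ctrl and 0.755 (-0.87 to 2.38, limma adjusted p = 1) in OE against KO. The sign in KO against Ctrl turned with the library left out, for both genes. Without Ctrl 2 it was -0.58 for Duox2 and -0.74 for Duoxa2, and without Ctrl 3 it was 0.87 and 0.703. Without KO 1 it was -0.18 and -0.42, and without KO 2 it was 0.485 and 0.34. In OE against Ctrl the values were -0.28 and 0.014 without Ctrl 2, and 1.17 and 1.46 without Ctrl 3. In OE against KO they were -0.029 and 0.375 without KO 2.

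Duox2 and Duoxa2 varied together with r = 0.910 over the 10 libraries (permutation p = 0.0003, adjusted p = 0.0012) and rho = 0.915 (permutation p = 0.0005, adjusted p = 0.0015). Without Ctrl 2 and Ctrl 3, the libraries farthest from the median of Duox2, r was 0.838, and for deviations from the group means it was 0.914. Other genes followed Duox2 more closely, among them Endod1 at 0.966 and Slc1a1 at 0.956, and Duoxa2 likewise, with Ap1s1 at 0.961. The r of Duox2 with Duoxa2 therefore does not set the pair apart. The ratio of Duoxa2 to Duox2 was 0.641 and 0.597 in KO, 1.20, 0.798, 0.557, 0.627 and 1.33 in OE, and 0.647, 0.7435 and 0.743 in Ctrl. The library labelled OE 1 and OE 5 had more Duoxa2 than Duox2 per length, and the other 8 had less. The other 4 pairs did not pass. Pearson r and rho were -0.329 and -0.382 for Nos2 with Duox2 (permutation p = 0.354 and 0.280), and 0.354 and 0.612 for Lcn2 with Reg3g (permutation p = 0.317 and 0.0649). They were 0.395 and 0.212 for Duox2 with Reg3g (permutation p = 0.259 and 0.562), and -0.2875 and -0.0303 for Pigr with Reg3g (permutation p = 0.420 and 0.945). The adjusted p for r was 0.420 in all 4, and r without the libraries farthest from the median of the first gene was -0.183, 0.300, 0.0505 and 0.142, in the same order of pairs.

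Nos2 (ENSMUSG00000020826, chromosome 11, 78920787 to 78960254, plus strand), the inducible nitric oxide synthase, was at 3.48 and 20.8 scaled TPM in KO, at 25.35, 7.44, 8.58, 6.67 and 1.76 in OE, and at 10.8, 6.47 and 7.30 in Ctrl. KO 2 and the library labelled OE 1 were high, and KO 1 and OE 5 were low, so the extremes fell within the KO and OE groups. The log2 differences were 0.13 (-1.73 to 1.998, limma adjusted p = 0.990) in KO against Ctrl, -0.08 (-1.57 to 1.41, limma adjusted p = 0.988) in OE against Ctrl and -0.21 (-1.92 to 1.498, limma adjusted p = 1) in OE against KO. Without KO 1 the KO against Ctrl value was 1.27, without KO 2 it was -1.01, and without Ctrl 2 it was -0.003. For OE against Ctrl it was -0.49 without the library labelled OE 1, 0.33 without OE 5 and 0.115 without Ctrl 1, and in OE against KO it was -1.35 without KO 1, 0.93 without KO 2 and 0.195 without OE 5. Macrophages can also make Nos2. The 10 macrophage and dendritic cell markers summed to 252 and 151.5 scaled TPM in KO, 72.6 to 305 in OE and 51.4 to 87.8 in Ctrl, with the highest sum in the library labelled OE 1. Of 9 tested, 8 were positive in KO against Ctrl and 9 in OE against Ctrl, where 53.0% and 52.1% of all tested genes were positive. Csf1r, C1qa and Itgax were at most 0.498, 0.0891 and 0.582 scaled TPM in Ctrl. C1qb was at most 1.865 scaled TPM there, and under 1 TPM as deposited. All of these genes entered the test through KO and OE libraries alone. For them the filter favoured a positive sign against Ctrl, so these counts are a description only. Lyz2, the lysozyme of macrophages, was at 171 and 104 in KO, 11.6 to 193 in OE and 2.39 to 10.7 in Ctrl, while the defining marker Adgre1 was at 0.921 and 0.6165, 0 to 0.395 and 0.0246 to 0.509 in KO, OE and Ctrl in turn. The part of these cells in the Nos2 values was not tested.

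Lcn2 (ENSMUSG00000026822, chromosome 2, 32384633 to 32388252, minus strand), the siderophore-binding lipocalin, was barely expressed. It was at 0.812 and 0.570 scaled TPM in KO, at 0.8505, 2.75, 0.557, 3.18 and 0.539 in OE, and at 0.0693 and 0.475 in Ctrl 1 and 2, and Ctrl 3 lists it at 0. All KO and OE libraries lay above all Ctrl libraries, also as deposited, and OE 2 and OE 4 were the highest. The log2 difference was 1.005 (0.12 to 1.885, limma adjusted p = 0.755) in OE against Ctrl, 0.535 (-0.57 to 1.64, limma adjusted p = 0.943) in KO against Ctrl and 0.47 (-0.54 to 1.48, limma adjusted p = 1) in OE against KO. Between OE and Ctrl it was 2.61 with a pseudocount of 0.1 in place of 1 and 0.32 with 5, and without OE 2 or OE 4 the gene no longer passed the filter. Since those values let it into the test, the OE against Ctrl difference is a description only. Neutrophils also carry Lcn2. Their 9 markers summed to 13.5 and 2.83 scaled TPM in KO, 1.37 to 19.2 in OE and 0.9996 to 9.725 in Ctrl, and the defining marker Ly6g was listed at 0 in every library. The part of these cells in the Lcn2 values was not tested.

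Pigr (ENSMUSG00000026417, chromosome 1, 130826684 to 130852249, plus strand), the receptor that carries IgA into the lumen, was the steadiest gene of the set. It was at 552 and 885 scaled TPM in KO, at 736, 577, 719.9, 523 and 516 in OE, and at 677, 1097 and 682 in Ctrl. The highest library was 2.13 times the lowest, and the groups overlapped. The log2 differences were -0.19 (-0.999 to 0.62, limma adjusted p = 0.952) in KO against Ctrl, -0.39 (-1.04 to 0.26, limma adjusted p = 0.763) in OE against Ctrl and -0.203 (-0.945 to 0.54, limma adjusted p = 1) in OE against KO. As deposited both differences from Ctrl were positive, at 0.34 in KO and 0.12 in OE, where the median of all genes was also above 0. The KO against Ctrl value was 0.041 without Ctrl 2, 0.15 without KO 1 and -0.53 without KO 2. In OE against Ctrl it was -0.16 without Ctrl 2, and in OE against KO it was 0.14 without KO 2 and -0.54 without KO 1.

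**Figure D4:**
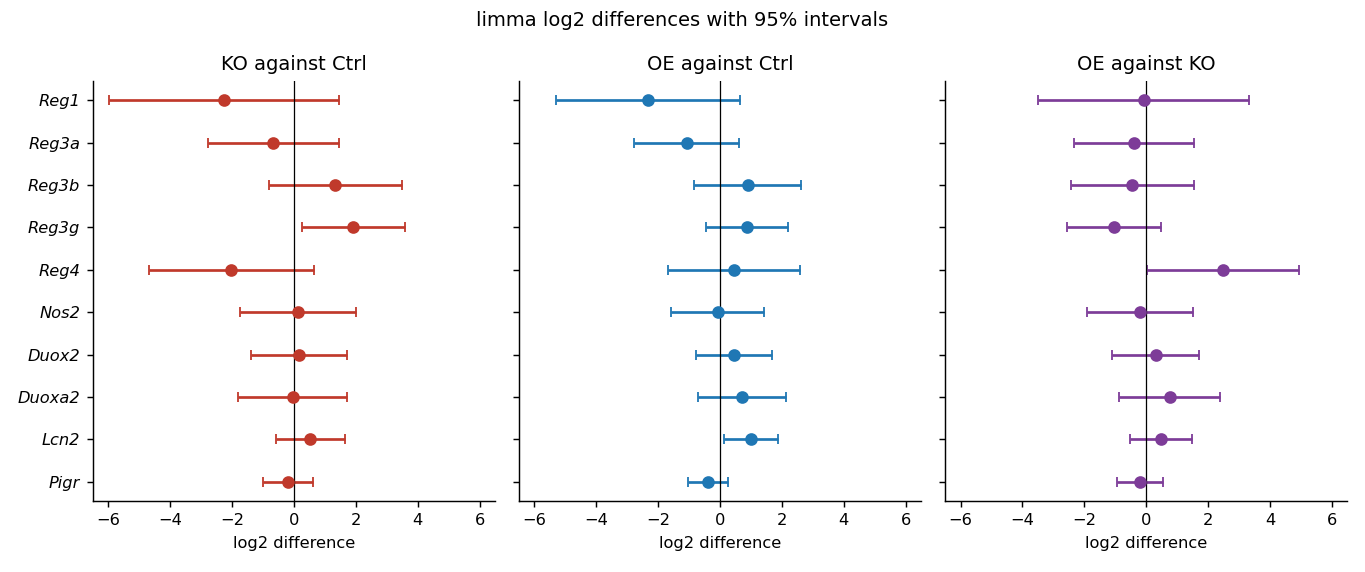
limma log2 differences of the 10 defence genes, with 95% intervals, in KO against Ctrl (left), in OE against Ctrl (middle) and in OE against KO (right), where positive values are higher in the group named first. The intervals that leave out 0 are those of Reg3g in KO against Ctrl, Lcn2 in OE against Ctrl and Reg4 in OE against KO, none of these passed after adjustment, and Lcn2 was tested only through its high OE 2 and OE 4 values.

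**Figure D5:**
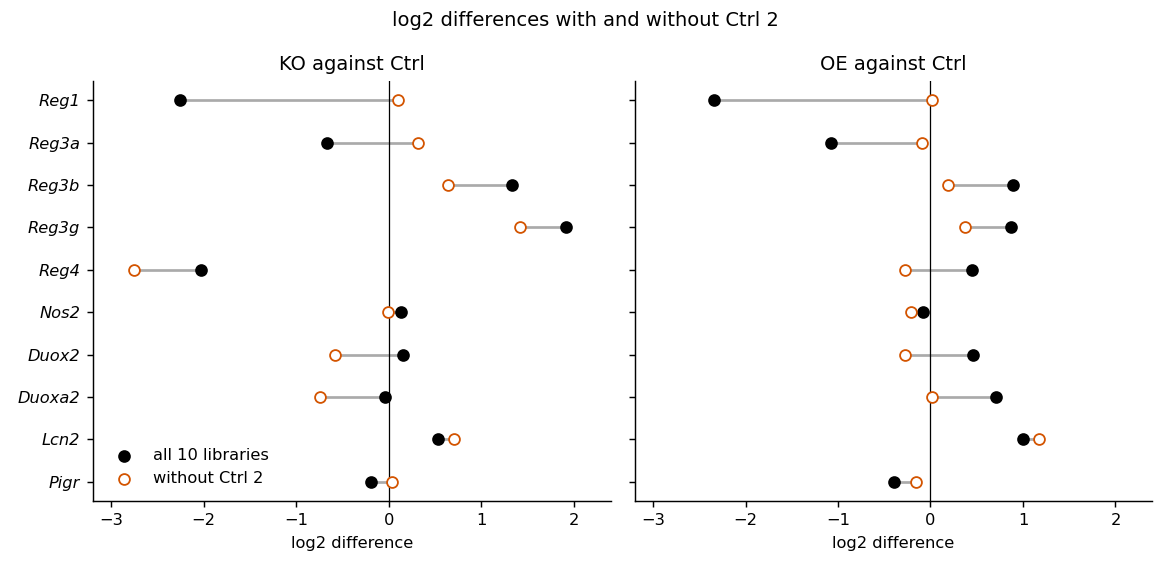
The log2 differences in KO against Ctrl and OE against Ctrl with all 10 libraries (filled points) and without Ctrl 2 (open points). Reg1 lies near 0 without Ctrl 2 in both comparisons, while Reg3g in KO against Ctrl is 1.92 with it and 1.42 without it.

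The genes whose level followed each defence gene most closely over the 10 libraries were sought among 7336 protein-coding genes with a mean of at least 5 scaled TPM, as a description by Pearson r with no test. The libraries share their scaling and Ctrl 2, so the first r given is over all libraries and the second without Ctrl 2. Reg3g was closest to Mal2 (0.906, and 0.879), Reg3b and Cd38. Reg3b was closest to Cd38 (0.927, and 0.882), Capg and Mospd3. Duox2 was closest to Endod1 (0.966, and 0.941), Gsdmc2 and Slc1a1, and Duoxa2 to Ap1s1 (0.961, and 0.938), Pmvk and Slc50a1. The closest genes to Reg4 were Pnliprp2 (0.930, and 0.932), Cd24a and Usp39, and to Reg3a Ms4a10 (0.976, and 0.940), Hadh and Cyp2c65. For Nos2 they were Scfd2 (0.869, and 0.912), Slc26a2 and Dll1, the last a Notch ligand gene. For Pigr they were Arfgap3 (0.960, and 0.925), Clic5 and Ppm1a, and for Lcn2 Mre11a (0.894, and 0.898), Ube2j1 and Ss18. For Reg1 the match rested on Ctrl 2: r with Slc4a7, Creb3 and Creb3l2 was 0.974, 0.971 and 0.968, and 0.612, -0.251 and 0.328 without it.

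The surrounding pathways were read from 8 lists, and 0 of their tested genes passed after adjustment in limma in any comparison. Of 20 tested genes among other inducible defence products, 15 were positive in KO against Ctrl (median 0.67), 19 in OE against Ctrl (0.84) and 12 in OE against KO (0.052), where 53.0%, 52.1% and 49.9% of all tested genes were positive. Without Ctrl 2 these were 11 (median 0.19) in KO against Ctrl and 15 (0.37) in OE against Ctrl. With 1 library left out in turn the medians ran from 0.19 without Ctrl 2 to 1.37 without KO 2 in KO against Ctrl, 0.37 without Ctrl 2 to 1.02 without Ctrl 3 in OE against Ctrl and -0.27 without KO 2 to 0.62 without KO 1 in OE against KO. Slpi and Cxcl5 were listed at 0 in all Ctrl libraries, and Hp and S100a9 were at most 0.0372 and 0.815 scaled TPM there. All of these genes entered the test through KO and OE libraries alone. For such genes the filter favoured a positive sign against Ctrl, so these counts are a description only. With no filter 19 of 28 were positive in KO against Ctrl (median 0.387) and 23 in OE against Ctrl (0.499). Lypd8, which keeps flagellated bacteria off the epithelium, was at 1286 to 2170 scaled TPM in KO, 720.3 to 1485 in OE and 919 to 1368 in Ctrl. Itln1, a lectin of goblet and Paneth cells, was at 335 to 1088 in KO, 505 to 2364 in OE and 123 to 1056 in Ctrl. Gpx2, an epithelial glutathione peroxidase, was at 717 to 1168 in KO, 506 to 1536 in OE and 333 to 1041 in Ctrl.

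Saa1 and Dmbt1 of the same list were picked after their values were seen. Saa1, a serum amyloid A gene that is also induced in ileal epithelium by microbes, was at 64.2 and 219.8 scaled TPM in KO, at 147, 104, 22.2, 22.95 and 12.8 in OE, and at 4.80 and 20.55 in Ctrl 1 and 3, and Ctrl 2 lists it at 0. KO 2 was highest for Saa1 as for Reg3g, and both KO libraries lay above all Ctrl libraries, as for 9.09% of all tested genes. The log2 difference was 4.585 in KO against Ctrl (limma adjusted p = 0.943) and 3.04 in OE against Ctrl (limma adjusted p = 0.755). Without Ctrl 2 these were 3.42 and 1.88. Dmbt1, a secreted scavenger receptor, was at 404 and 595 scaled TPM in KO, at 184, 591, 209, 277 and 98.4 in OE, and at 213, 62.2 and 244 in Ctrl. Its log2 difference in KO against Ctrl was 1.72 (limma adjusted p = 0.943), and 1.101 without Ctrl 2. For OE against Ctrl it was 0.62 (limma adjusted p = 0.801), with 0.001 without Ctrl 2, 0.98 without Ctrl 3 and 0.28 without OE 2.

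Among 17 tested genes of IL-22, IL-17 and Stat3 signalling, 7 were positive in KO against Ctrl (median -0.105), 7 in OE against Ctrl (-0.011) and 8 in OE against KO (-0.005). As deposited 14 were positive in KO against Ctrl and 13 in OE against Ctrl. Without Ctrl 2 these were 11 (median 0.078) in KO against Ctrl and 10 (0.12) in OE against Ctrl, so the balance turned with the scaling and with Ctrl 2. Stat3, the factor that relays IL-22, was at 66.7 and 66.7 scaled TPM in KO, at 59.2, 259.9, 209.5, 251 and 126 in OE, and at 80.8, 111 and 95.6 in Ctrl. Of the 5 OE libraries 4 were above every KO and Ctrl library for Stat3, and the library labelled OE 1 was below them all. The log2 difference in OE against KO was 1.24 (limma adjusted p = 1). Il17rc, an IL-17 receptor subunit, was at 65.5 to 104 in KO, 51.7 to 135 in OE and 68.4 to 106 in Ctrl, and the adaptor gene Traf3ip2 at 34.45 to 34.6 in KO, 24.5 to 48.85 in OE and 23.7 to 35.8 in Ctrl.

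Of 20 tested genes of microbe sensing, 9 were positive in KO against Ctrl (median -0.052), 12 in OE against Ctrl (0.078) and 6 in OE against KO (-0.102). As deposited 18 were positive in KO against Ctrl and 18 in OE against Ctrl. Without Ctrl 2 these were 14 (median 0.071) in KO against Ctrl and 10 (0.011) in OE against Ctrl. Over the libraries left out in turn the medians ran from -0.097 without Ctrl 1 to 0.12 without KO 1 in KO against Ctrl, -0.043 without OE 4 to 0.25 without Ctrl 3 in OE against Ctrl and -0.27 without KO 1 to -0.022 without KO 2 in OE against KO. The inflammasome genes were the most abundant of them. Pycard, the adaptor, was at 177 to 202 scaled TPM in KO, 122.5 to 185 in OE and 69.05 to 151 in Ctrl. The caspase gene Casp1 was at 71.35 to 84.4 in KO, 47.55 to 73.0 in OE and 49.8 to 71.4 in Ctrl, and the sensor gene Nlrp6 at 43.2 to 54.95 in KO, 30.6 to 51.9 in OE and 42.7 to 69.1 in Ctrl.

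Of 11 tested genes of other NADPH oxidases and peroxidases, 7 were positive in KO against Ctrl (median 0.403), 8 in OE against Ctrl (0.405) and 6 in OE against KO (0.057). Without Ctrl 2 these were 7 (median 0.038) in KO against Ctrl and 6 (0.115) in OE against Ctrl. With 1 library left out in turn the medians ran from 0.038 without Ctrl 2 to 0.74 without Ctrl 3 in KO against Ctrl, 0.115 without Ctrl 2 to 0.575 without Ctrl 3 in OE against Ctrl and -0.12 without KO 2 to 0.23 without KO 1 in OE against KO. Cybb and Ncf1, under 1 TPM as deposited in all Ctrl libraries, entered the test through KO and OE libraries alone. The filter favoured a positive sign against Ctrl for such genes, so these counts are a description only. Noxo1, the organiser of the Nox1 oxidase, was at 97.2 to 228 scaled TPM in KO, 100.5 to 199.6 in OE and 143 to 182 in Ctrl. The activator Noxa1 was at 8.40 to 10.25 in KO, 5.70 to 10.48 in OE and 3.57 to 10.2 in Ctrl, and the small GTPase gene Rac1 at 88.6 to 98.4 in KO, 76.4 to 125 in OE and 84.2 to 143 in Ctrl. Of 8 tested genes of arginine and nitric oxide metabolism, 6 were positive in KO against Ctrl (median 0.45), 6 in OE against Ctrl (0.17) and 3 in OE against KO (-0.25). Without KO 2 there were 4 in KO against Ctrl (0.11) and 5 in OE against KO (0.17). Arg1, at most 0.02935 scaled TPM in Ctrl, entered the test through KO and OE libraries alone. Its positive sign against Ctrl was favoured by the filter, so the counts against Ctrl are a description only. The arginase gene Arg2 was at 51.4 and 49.4 in KO, 39.4 to 80.9 in OE and 72.1, 497 and 40.1 in Ctrl, with Ctrl 2 the highest. As deposited it was at 146 TPM in Ctrl 2 and 46.7 to 92.65 elsewhere. Odc1, which makes polyamines, was at 56.4 to 137 in KO, 58.4 to 94.3 in OE and 69.65 to 79.7 in Ctrl. Asl, which makes arginine, was at 8.28 to 16.25 in KO, 12.7 to 24.4 in OE and 3.73 to 9.84 in Ctrl. All OE libraries lay above all Ctrl libraries for Asl (log2 difference 1.425, limma adjusted p = 0.755), as for 2.21% of all tested genes.

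Of 6 tested genes of iron handling, 3 were positive in KO against Ctrl (median 0.29), 3 in OE against Ctrl (0.01) and 3 in OE against KO (-0.059). Over the libraries left out in turn the medians ran from 0.067 without KO 1 to 0.345 without KO 2 in KO against Ctrl, -0.043 without the library labelled OE 1 to 0.21 without Ctrl 2 in OE against Ctrl and -0.26 without the library labelled OE 1 to 0.16 without KO 1 in OE against KO. Hmox1, listed at 0 in all Ctrl libraries, passed the filter through OE libraries alone, which favours a positive sign against Ctrl. The iron counts against Ctrl are thus a description only. The ferritin gene Ftl1 was at 154 to 309 scaled TPM in KO, 206.5 to 559 in OE and 246 to 517 in Ctrl, and Fth1 at 152 to 285 in KO, 213 to 475 in OE and 209.5 to 731.5 in Ctrl. The transferrin receptor gene Tfrc was at 79.8 to 133.5 in KO, 47.9 to 77.6 in OE and 25.5 to 90.4 in Ctrl. Of 8 tested genes of IgA supply and transport, 4 were positive in KO against Ctrl (median 0.13), 7 in OE against Ctrl (0.245) and 5 in OE against KO (0.15). Without Ctrl 2 these were 3 (median -0.062) in KO against Ctrl and 3 (-0.008) in OE against Ctrl. Mal2, a gene of apical transport, was at 144 to 208 in KO, 74.65 to 140.5 in OE and 80.4 to 117 in Ctrl. The vesicle gene Rab25 was at 60.5 to 106 in KO, 48.7 to 94.4 in OE and 29.5 to 105 in Ctrl, and Ccl25, a chemokine that draws IgA plasma cells, at 23.25 to 47.1 in KO, 40.6 to 73.9 in OE and 35.8 to 72.15 in Ctrl.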

How the data were processed

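Per the labels, total RNA of ileal crypts was sequenced single-end. The authors deposited 1 table of TPM for each library, per the file headers, except that the header for Ctrl 1 names no unit and it was taken from its values and the other files. The submitters' processing notes name TopHat, Cufflinks and mm10 without versions, and neither the annotation nor the tool that gave the TPM is stated there (not given in the sources used here). Values were divided by median-ratio factors over 11146 genes above 0 in all libraries, genes at 1 TPM or more in at least 2 libraries were kept, and log2(scaled TPM + 1) was fitted in limma 3.58.1 (R 4.3.3) with a mean for each group and a trended prior variance. Fold changes are on that scale, which understates those of low genes. The p-values were adjusted by Benjamini and Hochberg over all tested genes, with a threshold of 0.05. Correlation p-values are two-sided, from 100000 permutations. Symbols came from GENCODE M21 and promoters from RefSeq. The 10 genes and all lists were chosen with earlier results of these data known, and the genes named from a pathway list are its 3 most abundant tested members. In any list a gene low in Ctrl could pass the filter through KO or OE libraries alone, which favours a positive sign against Ctrl. The fits were tested on simulated data. Alternatives were the deposited scale, other pseudocounts and filters, a replicate block, no mitochondrial transcripts, and libraries left out.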

Additional observations from a re-analysis of the deposited data

Results flagged for a closer look

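Nos2 in the library labelled OE 1 was at 25.35 scaled TPM, far above the other OE libraries, which were at 7.44, 8.58, 6.67 and 1.76. Its gap to the nearest of them was 0.711 of the range of the group in scaled TPM, just past the limit of 0.710. It was 0.577 in deposited TPM and 0.448 on the log2 scale, both below that limit, and these scales were added after seeing the data. All 10 defence genes were looked at in this way in the OE group, and chance marks about 1 in 20 groups.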

How the results depend on the processing

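The defence genes called in limma were 0 in each comparison under every alternative run. Genes called over the whole table moved to 5 in KO against Ctrl and 7 in OE against KO with no filter on low values, and to 1 in OE against Ctrl and 1 in OE against KO without OE 3, OE 4 and Ctrl 3. With each library left out in turn they ranged over 0 to 2 in KO against Ctrl, 0 to 1 in OE against Ctrl and 0 to 2 in OE against KO. Replicate numbers are shared by the groups, but same-numbered libraries did not deviate together (correlations of -0.177 to 0.063). With the replicate number as a block 3 genes were called in OE against Ctrl, and these log2 differences turned sign: in KO against Ctrl -0.003 for Nos2 and 0.094 for Duoxa2, in OE against Ctrl -0.502 for Reg4 and 0.51 for Nos2, and in OE against KO 0.32 for Reg1, 0.69 for Reg3a, 0.52 for Nos2 and -0.18 for Duox2. The median of the 10 genes in OE against KO was 0.32 with 6 positive under the block. As deposited, Duoxa2 (0.45) and Pigr (0.34) in KO against Ctrl and Nos2 (0.295) and Pigr (0.12) in OE against Ctrl turned, as did r of Nos2 with Duox2 (0.248) and of Pigr with Reg3g (0.705). Duoxa2 in KO against Ctrl was 0.054 without mitochondrial transcripts and 0.703 without OE 3, OE 4 and Ctrl 3, Nos2 in OE against Ctrl was 0.017 with a pseudocount of 5, and Reg3b in OE against KO was 0.14 without OE 3, OE 4 and Ctrl 3. With 1 library left out in turn, differences that turned sign ranged in KO against Ctrl over -3.535 to 0.098 for Reg1, -1.665 to 0.32 for Reg3a, -1.01 to 1.27 for Nos2, -0.58 to 0.87 for Duox2, -0.74 to 0.703 for Duoxa2 and -0.53 to 0.15 for Pigr. Between OE and Ctrl they ranged over -3.62 to 0.012 for Reg1, -0.27 to 1.46 for Reg4, -0.49 to 0.33 for Nos2 and -0.28 to 1.17 for Duox2, and in OE against KO over -0.24 to 0.082 for Reg1, -0.73 to 0.085 for Reg3b, -1.35 to 0.93 for Nos2, -0.029 to 0.63 for Duox2 and -0.54 to 0.14 for Pigr. The r of Duox2 with Reg3g ranged over -0.087 to 0.596 and of Pigr with Reg3g over -0.635 to 0.22. The cause of these turns was not tested. With 1 library left out in turn, the other differences of the 10 genes kept their direction. Among them were Reg3g in KO against Ctrl (1.39 to 2.45), Reg4 in OE against KO (1.504 to 3.46) and Reg3b in KO against Ctrl (0.644 to 1.98). Reg3g and Reg4 had an unadjusted limma p under 0.05 in the same data, so their kept direction adds little. Where leaving out a library leaves 1 KO library, it is assumed to vary like the other groups. TPM give no depth, so counting error could not be set beside any value.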
